A study of Mus musculus with 16 samples.

Results

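The genes described here are the numbered members of the TNF ligand and receptor superfamily, measured in whole liver of 7-day-old male mice. They were taken as every gene whose single annotated symbol starts with Tnfrsf or Tnfsf followed by a digit, and where a gene had several probe sets, that with the highest 16-array mean stood for it. This gave 29 of 18820 genes, of which 20 are receptors and 9 are ligands. Tnfsf13b alone had a further probe set, so the 29 genes carry 30. A probe set that lists several family symbols together was not used, and the ligands Tnfsf12 and Tnfsf13 have no member probe set for that reason.

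TNF ligands are mostly membrane proteins that act as trimers and can be shed, and each binds a receptor with cysteine-rich repeats outside the cell. One class of receptors carries a death domain, which can assemble a complex that activates caspase-8 or, where caspase-8 is missing, lets RIPK3 drive necroptosis. The other class binds TRAF adaptors directly, and through TRAF2 and the cIAP proteins it controls the canonical and the non-canonical NF-κB pathways. In liver, TNF, TRAIL and TWEAK signalling is known for its part in hepatocyte death, regeneration and the ductular response.

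Each of the 4 genotypes had 4 mice, with 1 array per mouse, on a mixed C57/BL6 - SV129Ola background. TRAF2/Casp-8LPC-KO mice (TRAF2/Casp8 KO below) carry alfp-Cre, which was used to delete Traf2 and Caspase-8 in the parenchymal cells of the liver, so other liver cells keep both genes. TRAF2/Casp-8LPC-KO/RIPK3-/- mice (RIPK3 triple KO) carry the same 2 deletions and lack Ripk3 in every cell. TRAF2/Casp-8/IKKbetaLPC-KO mice (IKKβ triple KO) carry the same 2 deletions and were also made to lose Ikkβ in parenchymal cells. WT mice are littermates that have the floxed alleles but no Cre, so every knockout group shares the loss of Traf2 and Caspase-8 and no group carries the Ripk3 or Ikkβ deletion alone.

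Values are log2 signals made with RMA, and a gene is said to have passed, or to have risen or fallen, where limma's adjusted p over all probe sets was under 0.05. Array medians lay between 4.90 and 5.05, and arrays of a genotype correlated at 0.981 to 0.991. WT replicate 1 stood apart, with the lowest array weight (0.461) and a second principal component of −50.50 against −22.31 to 27.04 in the 15 others. Values without it are given for Tnfrsf10b, Tnfrsf1b and Tnfrsf18, but for no gene outside the 29 members. The array names, read as plate positions, put IKKβ triple KO and WT in column 5 and the other genotypes in column 7. Rows within a column were separate, so plate position and genotype cannot be told apart. The array name of TRAF2/Casp8 KO replicate 4 carries the prefix G183, where the 15 others carry G182, and this was not modelled. Casp8 was lower in the 12 arrays labelled as lacking it (8.50 to 9.11) than in WT (9.76 to 10.07), and Ripk3 was lower in RIPK3 triple KO (4.07 to 4.40) than in the 12 others (5.62 to 6.42). Ikbkb read 7.07 to 7.30 in IKKβ triple KO, against 7.503 to 8.06 in the 12 others. Traf2 went against its label, at 6.87 to 7.53 in the 12 arrays labelled as deleted and 6.21 to 6.40 in WT, so Traf2 loss is taken from the labels alone. The sources used here do not say whether its probe set lies inside the deleted part. The 6 measured hepatocyte markers averaged 11.93 to 12.51 over the 16 arrays, near the top of the range of all values (0.89 to 13.65).

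Because NF-κB is the pathway these receptors feed and IKKβ activates, the 250 bases before the transcription start are printed for Tnfrsf12a, the receptor with the largest differences, and for Tnfrsf9, a receptor with matches to the NF-κB consensus. Ltb, a ligand gene of the same superfamily whose symbol has no number and which rose and fell between genotypes, is set beside them. Sequences are from RefSeq (GRCm38.p6), read 5′ to 3′ on the gene's strand, and capitals mark matches to the 10-base NF-κB consensus on either strand.
Tnfrsf12a, chr17:23677450-23677699, minus strand: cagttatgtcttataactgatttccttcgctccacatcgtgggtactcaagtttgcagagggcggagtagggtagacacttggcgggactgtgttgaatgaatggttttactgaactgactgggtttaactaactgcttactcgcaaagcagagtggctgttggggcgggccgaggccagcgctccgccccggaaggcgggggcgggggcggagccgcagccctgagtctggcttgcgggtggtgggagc
Tnfrsf9, chr4:150927749-150927998, plus strand, the second of 2 listed starts: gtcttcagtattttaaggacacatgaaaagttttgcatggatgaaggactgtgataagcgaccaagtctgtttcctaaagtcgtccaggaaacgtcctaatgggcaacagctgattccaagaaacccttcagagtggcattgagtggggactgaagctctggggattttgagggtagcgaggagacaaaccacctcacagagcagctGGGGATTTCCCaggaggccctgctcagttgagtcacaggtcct
Ltb, chr17:35194257-35194506, plus strand: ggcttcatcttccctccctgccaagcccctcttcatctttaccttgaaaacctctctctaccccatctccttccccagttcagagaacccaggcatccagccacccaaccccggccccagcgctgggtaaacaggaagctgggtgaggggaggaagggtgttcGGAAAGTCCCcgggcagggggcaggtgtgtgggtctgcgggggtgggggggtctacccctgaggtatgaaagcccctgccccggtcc

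Of the 29 members, 23 had a promoter sequence, and 2 of them (8.70%), Tnfrsf8 and Tnfrsf9, held a match. Of all 27025 genes with such a sequence, 1204 (4.46%) held one, counting a gene with several listed starts where any of them did. The Tnfrsf9 matches overlap in 1 site before its second listed start, and the window of its first listed start, not printed, held 0. Of the 2 members that passed in a comparison, Tnfsf18 held 0 matches and Tnfrsf10b had no promoter sequence. The Ltb match starts 87 bases before the gene's start, on the opposite strand. A match is a description of letters and not a shown binding site, and the Tnfrsf12a window simply lacks these letters.

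Of the 29 TNF receptors and ligands, Tnfrsf10b and Tnfsf18 each passed in 1 comparison, and the other 27 passed nowhere. Over the 6 comparisons, 2 of 174 member differences passed (1.15%), against 1.63% of the differences of all genes. Of the 174 differences, 168 (96.6%) were smaller than 0.5 on the log2 scale, against 96.3% for all genes. Both shares lie near those of all genes, so they describe the members and set them apart from no other genes. The 6 larger ones belonged to Tnfrsf10b (3) and Tnfrsf12a (3). The 95% interval lay within 2-fold in either direction for 168 differences and, in every comparison, for 27 members; the exceptions were again Tnfrsf10b and Tnfrsf12a. In each comparison 28 of 29 members were bounded in this way, where the share of all genes was 96.2% in TRAF2/Casp8 KO against WT, 97.4% and 97.2% in RIPK3 triple KO and IKKβ triple KO against TRAF2/Casp8 KO, 96.0% and 98.3% in the same genotypes against WT, and 95.9% in IKKβ triple KO against RIPK3 triple KO. A small difference in signal that does not pass is therefore bounded here rather than shown to be 0. The member counts lie near the shares of all genes, and the count of 27 members was not set against all genes. The bound is on the signal and not on the amount of RNA. For the 9 members with mean signals of 2.57 to 3.69, near the array's lowest, the RNA can change by more than the signal shows. Over the 29 members the SD within a genotype ran from 0.08 (Tnfsf18) to 0.49 (Tnfrsf12a), with a median of 0.20.

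In livers labelled TRAF2/Casp8 KO against WT, 0 of 29 members passed, where 3.31% of all genes did, and 5 had an unadjusted p under 0.05 (16.4% of all genes). Member differences ran from −0.36 (Tnfrsf4) to 1.11 (Tnfrsf12a) with a median of 0.06, and the median of all genes was −0.01. RIPK3 triple KO against TRAF2/Casp8 KO also had 0 members past the threshold (0.329% of all genes), and 1 had an unadjusted p under 0.05 (11.1%), with a median of −0.04. In IKKβ triple KO against TRAF2/Casp8 KO the count was again 0, against 1.02% of all genes, with 3 members at an unadjusted p under 0.05 (10.7%) and a median of 0.01. These 2 comparisons share the TRAF2/Casp8 KO livers with the first, and the 3 comparisons against WT share the WT livers.

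Against WT, 1 member, Tnfrsf10b, rose in RIPK3 triple KO, where 3.11% of all genes passed and 1.94% rose. There 7 members had an unadjusted p under 0.05 (15.6% of all genes), and the members' median was 0.06. IKKβ triple KO against WT had 0 of 29 (0.0372% of all genes), with 2 at an unadjusted p under 0.05 (6.45%). Between IKKβ triple KO and RIPK3 triple KO, 1 member passed, a fall of Tnfsf18, where 2.00% of all genes passed and 1.38% fell, and 2 members had an unadjusted p under 0.05 (16.7%). Group ranges that did not overlap were found for 2 members in TRAF2/Casp8 KO against WT (11.6% of all genes) and 4 in RIPK3 triple KO against WT (9.08%). They were found for 1 member between RIPK3 triple KO and TRAF2/Casp8 KO (6.87%), 2 between IKKβ triple KO and TRAF2/Casp8 KO (7.48%), 0 between IKKβ triple KO and WT (3.92%) and 3 between IKKβ triple KO and RIPK3 triple KO (9.01%). With 29 genes these counts lie near the background shares.

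**Figure D1:**
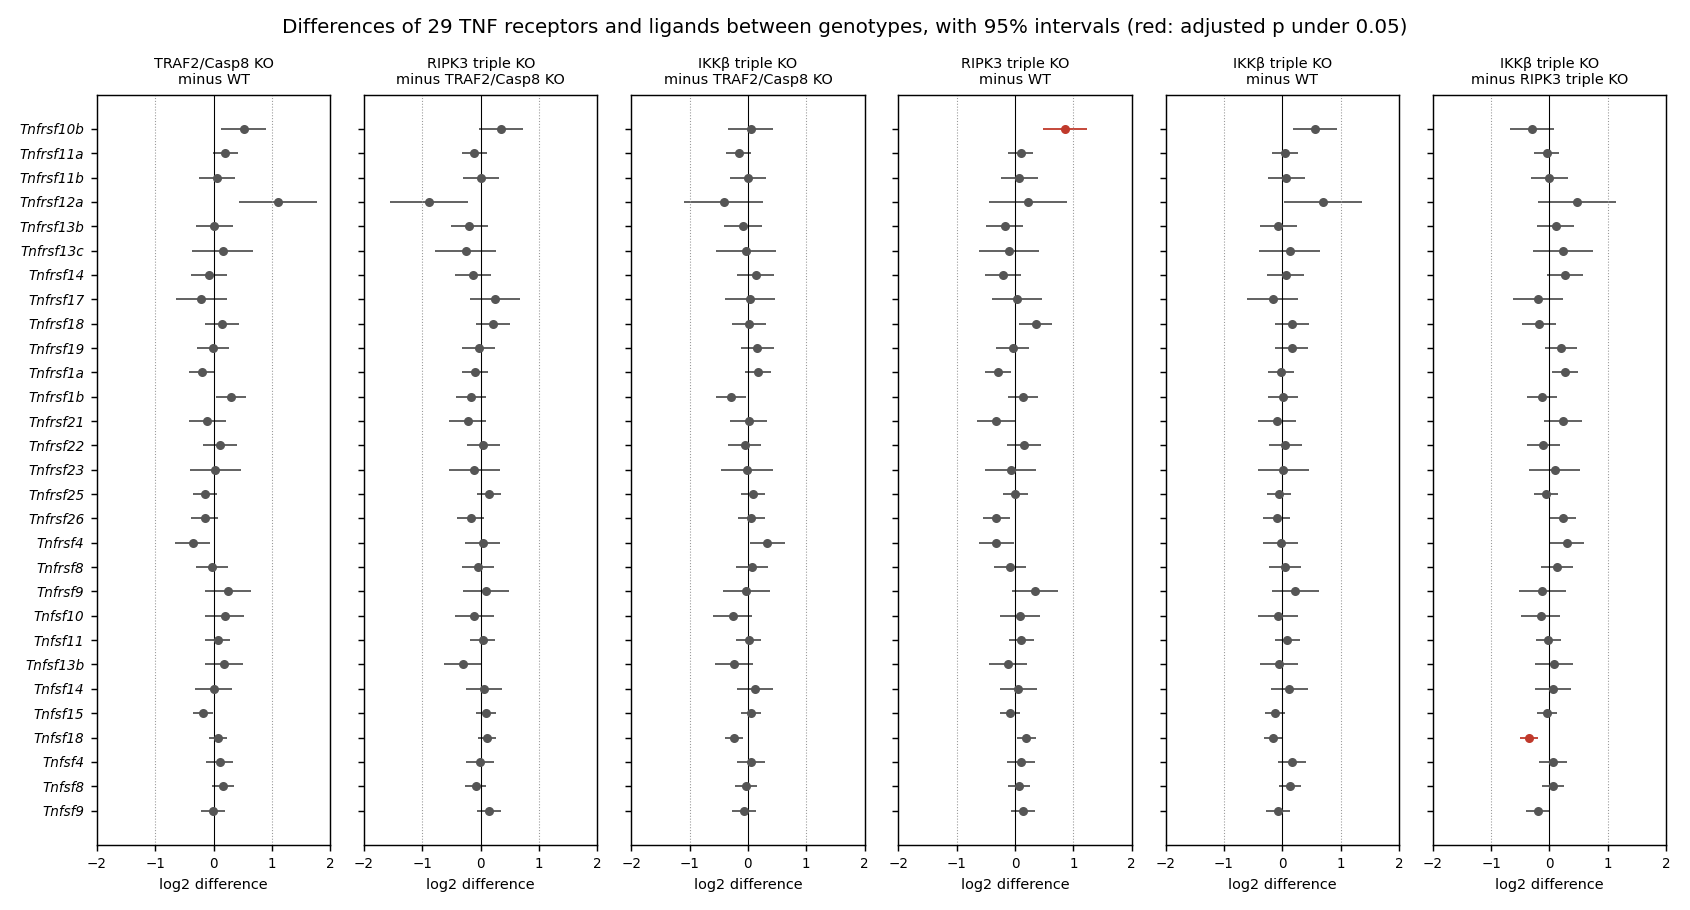
Log2 difference (points) and 95% interval (bars) of each of the 29 members in the 6 comparisons, receptors above ligands; dotted lines mark a 2-fold difference, and red marks an adjusted p under 0.05. Only Tnfrsf10b in RIPK3 triple KO against WT (0.86) and Tnfsf18 in IKKβ triple KO against RIPK3 triple KO (−0.35) are red, and the long bars of Tnfrsf12a show its spread.

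**Figure D2:**
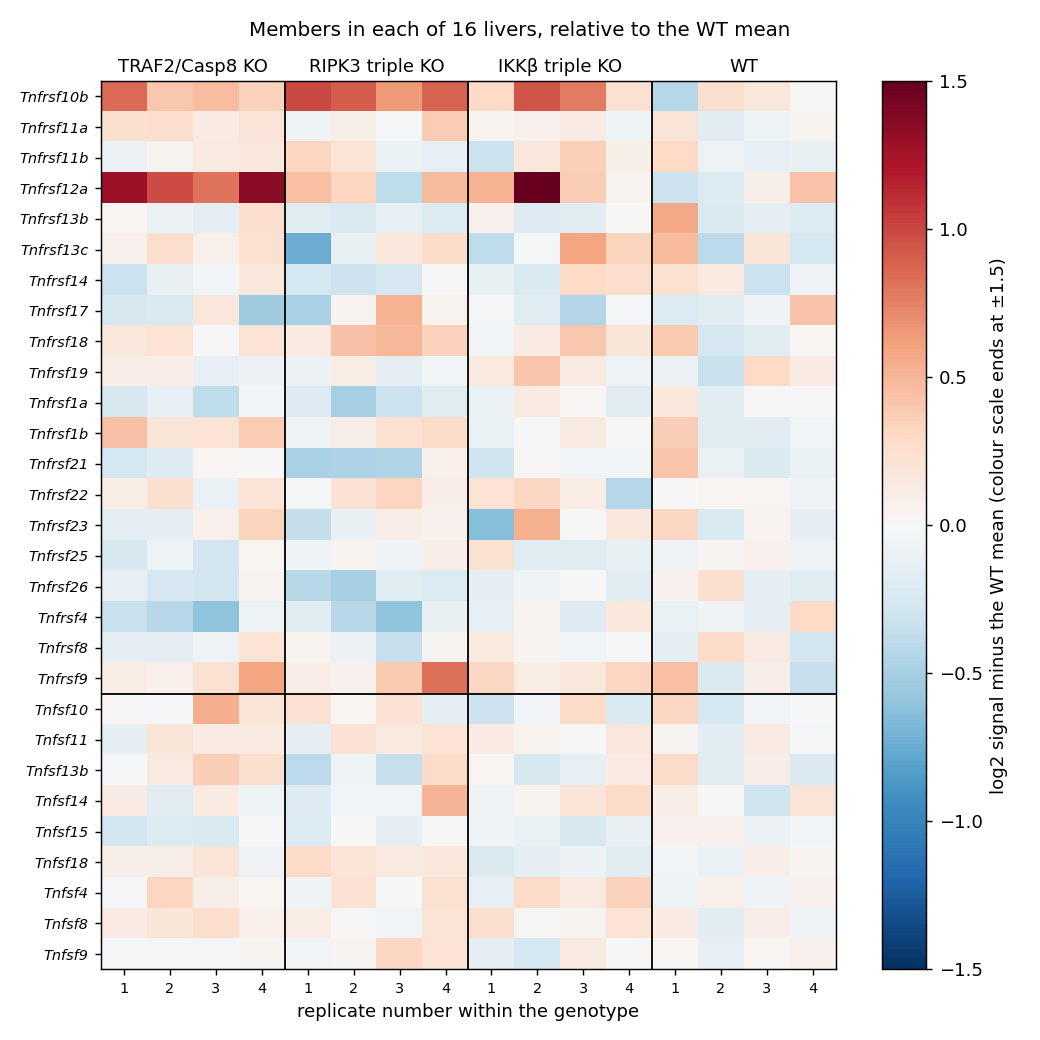
Log2 signal of each member (rows, receptors above the line and ligands below) in each of the 16 livers (columns), minus the member's WT mean; colours end at ±1.5. The rows that stand out are Tnfrsf10b and Tnfrsf12a, and the deviations run from −0.74 to 1.84.

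Tnfrsf10b encodes the mouse death receptor for TRAIL, the counterpart of the human DR5 receptor. Its signal was 6.03, 5.59, 5.64 and 5.53 in TRAF2/Casp8 KO livers, 6.18, 6.10, 5.83 and 6.06 in RIPK3 triple KO livers, 5.48, 6.12, 5.96 and 5.41 in IKKβ triple KO livers, and 4.76, 5.42, 5.36 and 5.20 in WT livers. All RIPK3 triple KO livers and all TRAF2/Casp8 KO livers were above the highest WT liver, whereas the lowest IKKβ triple KO liver (5.41) lay just under it. Tnfrsf10b rose 1.81-fold in RIPK3 triple KO against WT (log2 0.86 ± 0.18 SE, 95% interval 0.48 to 1.24, n = 4 per group, limma adjusted p = 0.0196). The difference in TRAF2/Casp8 KO against WT was 0.52 ± 0.18 (adjusted p = 0.179), and in IKKβ triple KO against WT it was 0.56 ± 0.18 (adjusted p = 0.633). None of the differences between the 3 knockout genotypes passed: RIPK3 triple KO minus TRAF2/Casp8 KO was 0.34 (interval −0.04 to 0.72) and IKKβ triple KO minus RIPK3 triple KO was −0.30 (−0.68 to 0.08). So a rise limited to RIPK3 triple KO was not shown.

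WT replicate 1 had the lowest Tnfrsf10b signal of the 16 livers. Without it the RIPK3 triple KO difference from WT was 0.72 and still passed. The call was lost without RIPK3 triple KO replicate 1 (limma adjusted p = 0.0583) or 2 (0.0526) or WT replicate 4 (0.0519), with differences of 0.81, 0.84 and 0.86. It held under all 10 other alternatives (adjusted p 0.00614 to 0.0449).

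Tnfsf10, the ligand TRAIL itself, showed no such pattern. It read 5.98, 5.94, 6.50 and 6.15 in TRAF2/Casp8 KO, 6.17, 5.98, 6.18 and 5.82 in RIPK3 triple KO livers, 5.64, 5.91, 6.24 and 5.73 in IKKβ triple KO, and 6.26, 5.69, 5.91 and 5.95 in WT. The 4 groups overlapped, the differences ran from −0.26 to 0.19, and the smallest adjusted p was 0.667. The mouse decoy receptors for TRAIL, Tnfrsf22 and Tnfrsf23, stayed within 4.32 to 5.07 and 3.97 to 5.14 over the 16 livers. Their differences lay between −0.10 and 0.16 and between −0.11 and 0.09, with smallest adjusted p-values of 0.664 and 0.887. Tnfrsf26, a related receptor that neighbours both on the genome, was lower in all RIPK3 triple KO livers (4.62 to 4.94) than in WT (4.94 to 5.36) by 0.32, which did not pass (adjusted p = 0.156).

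Tnfrsf12a encodes Fn14, the receptor for the cytokine TWEAK, a small TRAF-binding receptor known to be induced in injured liver and in ductular cells. It was 8.19, 7.87, 7.70 and 8.25 in TRAF2/Casp8 KO, 7.35, 7.22, 6.52 and 7.37 in RIPK3 triple KO livers, 7.41, 8.73, 7.26 and 6.95 in IKKβ triple KO, and 6.58, 6.69, 6.98 and 7.32 in WT. Every TRAF2/Casp8 KO liver was above every WT liver and above every RIPK3 triple KO liver, and IKKβ triple KO replicate 2 was the highest of all 16. The mean was 2.16-fold higher in TRAF2/Casp8 KO than in WT (log2 1.11 ± 0.32 SE, interval 0.44 to 1.78), which did not pass over all probe sets (limma adjusted p = 0.089).

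The same value for Tnfrsf12a passed when only these 2 groups were fitted (adjusted p = 0.029) and when p-values were adjusted over genes (0.0366 with 1 probe set per gene, 0.0372 with the mean of a gene's probe sets). It was between 0.0551 and 0.118 under the 7 other alternatives and at least 0.0973 without any 1 of the 8 arrays of the 2 genotypes. RIPK3 triple KO minus TRAF2/Casp8 KO was −0.89 ± 0.32 (adjusted p = 0.35), IKKβ triple KO minus TRAF2/Casp8 KO was −0.42 ± 0.32 (0.788), and RIPK3 triple KO minus WT was 0.22 ± 0.32 (0.823). IKKβ triple KO minus WT was 0.69 ± 0.32 (0.79), with SDs of 0.79 in IKKβ triple KO and 0.33 in WT. The SD of IKKβ triple KO rests largely on replicate 2.

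Cholangiocyte markers were also higher in TRAF2/Casp8 KO. The mean log2 signal of the 6 measured genes was 5.90 to 6.04 in TRAF2/Casp8 KO, 5.57 to 5.86 in RIPK3 triple KO, 4.98 to 5.63 in IKKβ triple KO and 4.94 to 5.23 in WT, and IKKβ triple KO replicate 2 was the highest of its group there too. Of the 6 genes, 4 rose in TRAF2/Casp8 KO against WT (2.17% of all genes) and 2 rose in RIPK3 triple KO against WT (1.94%). In IKKβ triple KO against WT 0 of the 6 passed, where only 0.0372% of all genes did. Against TRAF2/Casp8 KO, 3 (Sox9, Cldn4 and Cldn7) fell in IKKβ triple KO and 1 (Cldn7) in RIPK3 triple KO. There 0.903% and 0.149% of all genes fell. In IKKβ triple KO against RIPK3 triple KO, 1 (Sox9) fell, where 1.38% of all genes did. The part of cholangiocytes in the Tnfrsf12a and Tnfrsf10b values was not tested. In whole liver, fewer cells of a type and less RNA per cell cannot be told apart.

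**Figure D3:**
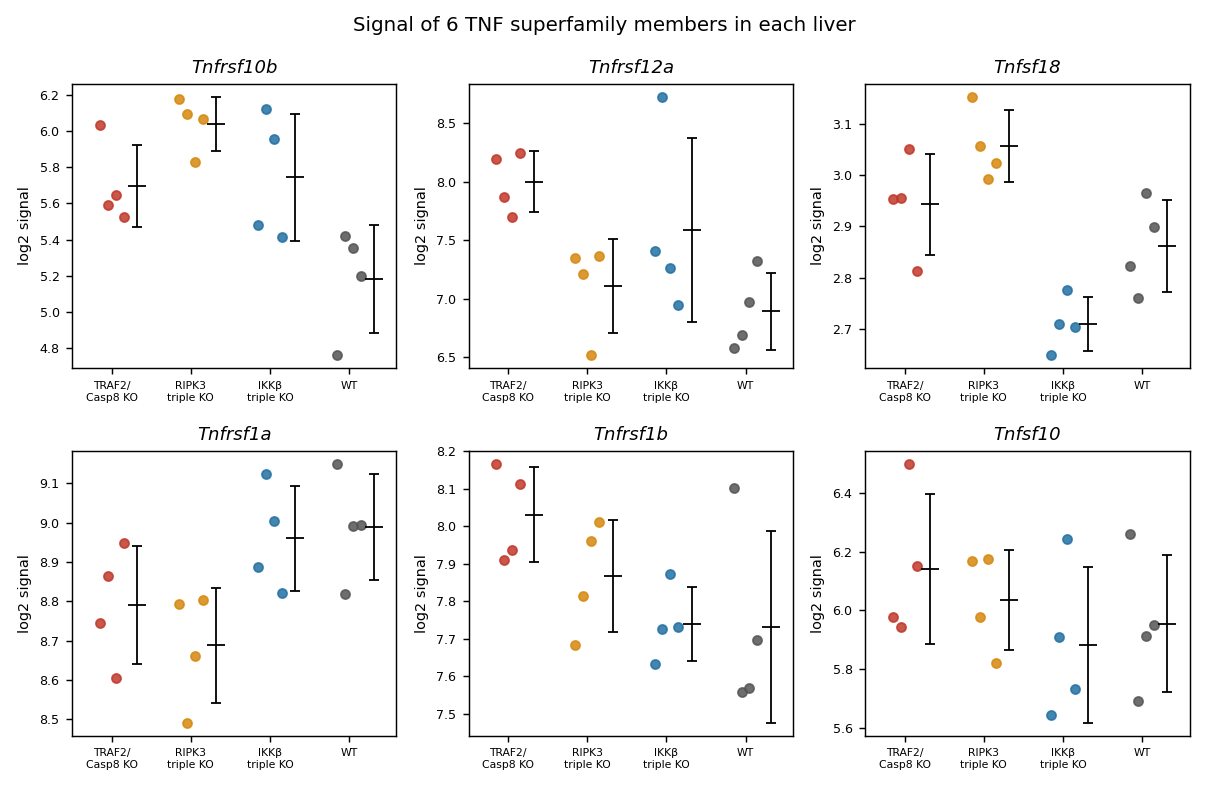
Log2 signal of 6 members in each liver (points, 4 per genotype), with the mean and SD of the genotype beside them; each panel has its own axis. Tnfrsf10b is lowest in WT, Tnfrsf12a is highest in TRAF2/Casp8 KO apart from 1 IKKβ triple KO liver at 8.73, and Tnfsf18 spans only 2.65 to 3.15.

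Neither of the 2 receptors of TNF itself passed in any comparison, where 1.63% of the differences of all genes did. Tnfrsf1a encodes TNFR1, the death-domain receptor found on most cells. It read 8.74, 8.86, 8.60 and 8.95 in TRAF2/Casp8 KO, 8.79, 8.49, 8.66 and 8.80 in RIPK3 triple KO livers, 8.89, 9.12, 9.004 and 8.82 in IKKβ triple KO, and 9.15, 8.82, 8.99 and 8.99 in WT. All RIPK3 triple KO livers lay below all WT and all IKKβ triple KO livers, but by 0.30 ± 0.10 and 0.27 ± 0.10 only. Neither value passed (adjusted p = 0.177 and 0.223). Over the 6 comparisons its 95% intervals stayed inside −0.52 to 0.49.

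Tnfrsf1b encodes TNFR2, which has no death domain, signals through TRAF2 and is found mainly on immune and endothelial cells. It read 8.17, 7.91, 7.94 and 8.11 in TRAF2/Casp8 KO, 7.68, 7.81, 7.96 and 8.01 in RIPK3 triple KO livers, 7.63, 7.72, 7.87 and 7.73 in IKKβ triple KO, and 8.10, 7.56, 7.57 and 7.70 in WT. Every TRAF2/Casp8 KO liver was above WT replicates 2 to 4, while WT replicate 1 (8.10) lay inside the TRAF2/Casp8 KO range. With all arrays the difference was 0.30 ± 0.12 (adjusted p = 0.259), and without WT replicate 1 it was 0.42 and passed (adjusted p = 0.0388). With array weights it was 0.39 (adjusted p = 0.0364). IKKβ triple KO livers were all below TRAF2/Casp8 KO livers, by 0.29 ± 0.12 (adjusted p = 0.439).

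Immune markers were also high in that WT liver. The mean of the 8 monocyte and macrophage markers was 8.28 to 8.50 in TRAF2/Casp8 KO, while in WT it was 8.91 in replicate 1 and 7.91 to 8.01 in the others. It was 8.01 to 8.48 in RIPK3 triple KO and 8.15 to 8.38 in IKKβ triple KO. Of the 8, only Cx3cr1 passed, with a fall of 1.00 in RIPK3 triple KO against TRAF2/Casp8 KO (limma adjusted p = 0.0445). There 0.149% of all genes fell. The 7 neutrophil and myeloid precursor markers averaged 8.52 to 9.91 in TRAF2/Casp8 KO, and in WT 10.41 in replicate 1 and 8.94 to 9.25 in the others. They averaged 7.23 to 9.18 in RIPK3 triple KO and 8.87 to 9.89 in IKKβ triple KO. In RIPK3 triple KO against WT their median difference was −1.20. There 0 of the 7 passed, but 7 had an unadjusted limma p under 0.05 (15.6% of all genes). The part of these cells in the Tnfrsf1b values was not tested.

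The remaining receptors with a death domain are Tnfrsf21 and Tnfrsf25. Tnfrsf21 (DR6) was 7.19 to 7.49 in TRAF2/Casp8 KO, 6.98 to 7.54 in RIPK3 triple KO, 7.16 to 7.47 in IKKβ triple KO and 7.24 to 7.88 in WT. In RIPK3 triple KO, replicates 1 to 3 lay at 6.98 to 7.01 and replicate 4 at 7.54. In WT, replicate 1 lay at 7.88 and replicates 2 to 4 at 7.24 to 7.36. The difference from WT of −0.33 ± 0.15 did not pass (adjusted p = 0.341) and is not given without either array. Tnfrsf25 (DR3), a receptor of T cells, stayed within 3.15 to 3.65 over the 16 livers, and its ligand gene Tnfsf15 (TL1A) within 2.83 to 3.18. Their smallest adjusted p-values were 0.581 and 0.36.

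Tnfsf18 encodes GITRL, the ligand of the T-cell receptor GITR. It read 2.95, 2.96, 3.05 and 2.81 in TRAF2/Casp8 KO, 3.15, 3.06, 2.99 and 3.02 in RIPK3 triple KO livers, 2.65, 2.71, 2.78 and 2.70 in IKKβ triple KO, and 2.82, 2.76, 2.97 and 2.90 in WT. The IKKβ triple KO livers were all below the RIPK3 triple KO and TRAF2/Casp8 KO livers, while WT lay between and overlapped IKKβ triple KO and TRAF2/Casp8 KO. Tnfsf18 fell by 0.35 ± 0.07 SE on the log2 scale in IKKβ triple KO against RIPK3 triple KO (1.27-fold, interval −0.50 to −0.19, n = 4 per group, limma adjusted p = 0.0292). Against TRAF2/Casp8 KO the difference was −0.23 ± 0.07 (adjusted p = 0.235).

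This probe set is in the dimmest 33.3% of the array (mean signal up to 3.70), where 4 receptors and 5 ligands of the family lie, and its SD of 0.08 within a genotype was the smallest of the 29. The call was lost when only the 2 groups were fitted (adjusted p = 0.112) and without any of 6 of the 8 arrays (up to 0.0822). It held without RIPK3 triple KO replicate 4 or IKKβ triple KO replicate 1. The 2 genotypes differed in plate column and row.

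Its receptor gene Tnfrsf18 (GITR) was 4.30 to 4.50 in TRAF2/Casp8 KO, 4.42 to 4.79 in RIPK3 triple KO, 4.25 to 4.69 in IKKβ triple KO and 4.04 to 4.69 in WT. Its RIPK3 triple KO difference from WT was 0.35 ± 0.14 (adjusted p = 0.24), and 0.48 without WT replicate 1 (adjusted p = 0.0417), the only alternative under which it passed. The 8 T and NK cell markers averaged 4.86 to 5.17 in TRAF2/Casp8 KO, 4.64 to 4.77 in RIPK3 triple KO, 4.63 to 5.10 in IKKβ triple KO and 4.46 to 5.01 in WT. Of these 8 markers only Gzma passed, with a fall in RIPK3 triple KO of 0.70 against WT (limma adjusted p = 0.00448). In that comparison 3.11% of all genes passed. Against TRAF2/Casp8 KO, Gzma fell in RIPK3 triple KO by 0.62 (adjusted p = 0.0383), where 0.149% of all genes fell. The part of T and NK cells in the Tnfsf18 and Tnfrsf18 values was not tested.

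The other costimulatory pairs, which pass signals between antigen-presenting cells and lymphocytes, held 0 calls. Over the 6 comparisons, 1.63% of the differences of all genes passed, so few calls would be found in any small group of genes. Tnfrsf4 (OX40) was 3.47 to 3.99 in TRAF2/Casp8 KO, 3.47 to 3.95 in RIPK3 triple KO, 3.88 to 4.23 in IKKβ triple KO and 3.92 to 4.37 in WT. The difference was −0.36 ± 0.14 in TRAF2/Casp8 KO against WT (adjusted p = 0.254) and −0.32 ± 0.14 in RIPK3 triple KO against WT (0.314), and the groups overlapped. Its ligand gene Tnfsf4 stayed within 2.41 to 2.88.

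Tnfrsf9 (4-1BB), whose promoter with an NF-κB match is printed above, was 3.56 to 4.08 in TRAF2/Casp8 KO, 3.55 to 4.31 in RIPK3 triple KO, 3.59 to 3.80 in IKKβ triple KO and 3.14 to 3.93 in WT. All 4 ranges overlapped, and its smallest adjusted p was 0.438. Its ligand gene Tnfsf9 read 2.55 to 3.13 over the 16 livers. Tnfrsf8 (CD30), the other member with a match, and its ligand gene Tnfsf8 differed by at most 0.13 and 0.16 in size, with smallest adjusted p-values of 0.718 and 0.452. Tnfrsf14 (HVEM) was 7.63 to 8.25 and its ligand gene Tnfsf14 (LIGHT) 4.21 to 5.01 over the 16 livers, with smallest adjusted p-values of 0.427 and 0.892.

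The BAFF and APRIL receptors, which keep B cells and plasma cells alive, did not pass in any comparison. Of the differences of all genes over the 6 comparisons, 1.63% passed. Tnfrsf13b (TACI) differed by −0.19 to 0.11, Tnfrsf13c (BAFF receptor) by −0.26 to 0.23 and Tnfrsf17 (BCMA) by −0.21 to 0.24. Tnfrsf13c had the second-largest SD within a genotype, 0.37, and read 4.46 in RIPK3 triple KO replicate 1 and 5.79 in IKKβ triple KO replicate 3. WT replicate 1 had the highest Tnfrsf13b signal (5.80, against 5.02 to 5.49 in the 15 others) and also the highest mean of the 7 B cell and plasma cell markers (5.89, against 4.71 to 5.57). The part of B cells in these values was not tested. The ligand gene Tnfsf13b (BAFF) was 4.54 to 4.94 in TRAF2/Casp8 KO, 4.18 to 4.86 in RIPK3 triple KO, 4.32 to 4.69 in IKKβ triple KO and 4.35 to 4.85 in WT. Its largest difference was −0.31 ± 0.15 in RIPK3 triple KO against TRAF2/Casp8 KO (adjusted p = 0.532).

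The RANK system, known for bone resorption and lymph node development, varied little. Tnfrsf11b encodes the soluble decoy osteoprotegerin, and its 6 differences were at most 0.07 in size, with intervals inside −0.31 to 0.38. Tnfsf11 (RANKL) differed by −0.02 to 0.11 (intervals inside −0.23 to 0.32). Tnfrsf11a (RANK) was 5.68 to 5.82 in TRAF2/Casp8 KO and 5.39 to 5.75 in WT, a difference of 0.20 ± 0.10 (adjusted p = 0.398). Tnfrsf19 (TROY), an orphan receptor, differed by −0.04 to 0.20, with 0.52 as its smallest adjusted p.

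Among family genes with other symbols, Ltb, Eda and Ngfr passed in at least 1 comparison. Of 15 measured, 1 rose in TRAF2/Casp8 KO against WT, where 2.17% of all genes rose, and 1 rose and 1 fell in RIPK3 triple KO against WT (3.11% of all genes passed). In IKKβ triple KO against WT, 0 of the 15 passed by limma, where 0.0372% of all genes did. Of the 15, 1 had an unadjusted p under 0.05 there (6.45% of all genes). Against TRAF2/Casp8 KO, 1 fell in RIPK3 triple KO and 2 fell in IKKβ triple KO, where 0.149% and 0.903% of all genes fell. In IKKβ triple KO against RIPK3 triple KO, 1 rose and 1 fell (2.00% of all genes passed). A difference between these counts and those of the 29 members was not tested. Ltb, which encodes lymphotoxin-β, the ligand that drives non-canonical NF-κB signalling through its receptor, read 8.23, 7.70, 7.94 and 8.67 in TRAF2/Casp8 KO and 6.98, 7.13, 6.81 and 7.49 in RIPK3 triple KO. It read 5.82, 6.25, 5.90 and 6.01 in IKKβ triple KO, and 6.40, 5.34, 5.86 and 5.14 in WT. Only IKKβ triple KO overlapped WT.

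Ltb rose by 2.45 ± 0.25 SE in TRAF2/Casp8 KO against WT (limma adjusted p = 8.83e-05). It fell by 2.14 ± 0.25 SE on the log2 scale in IKKβ triple KO against TRAF2/Casp8 KO (limma adjusted p = 0.000869) and by 1.11 ± 0.25 against RIPK3 triple KO (adjusted p = 0.0406). It rose by 1.42 ± 0.25 in RIPK3 triple KO against WT (adjusted p = 0.00822). IKKβ triple KO minus WT was 0.31 ± 0.25 (adjusted p = 0.896). WT replicate 1 had the highest Ltb signal of the WT livers (6.40), and the differences from WT are not given without it. The receptor gene Ltbr differed from WT by −0.24 ± 0.08 in TRAF2/Casp8 KO (adjusted p = 0.155).

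Eda, which encodes ectodysplasin, a ligand of skin appendage development, was 3.81 to 4.40 in RIPK3 triple KO and 4.64 to 5.10 in the 12 other livers. It fell by 0.63 ± 0.12 against WT (adjusted p = 0.0144) and by 0.64 ± 0.12 against TRAF2/Casp8 KO (adjusted p = 0.0471), and it rose by 0.77 ± 0.12 in IKKβ triple KO against RIPK3 triple KO (adjusted p = 0.0064). Ngfr, the low-affinity neurotrophin receptor, fell by 0.74 ± 0.16 in IKKβ triple KO against TRAF2/Casp8 KO (adjusted p = 0.0484). In TRAF2/Casp8 KO against WT it was at 0.56 ± 0.16 (adjusted p = 0.0874), with every TRAF2/Casp8 KO liver above every WT liver. Tnf itself differed by 0.30 ± 0.24 in TRAF2/Casp8 KO against WT (adjusted p = 0.657), Fas by −0.25 ± 0.12 (0.378) and Cd40 by 0.41 ± 0.11 (0.0775).

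**Figure D4:**
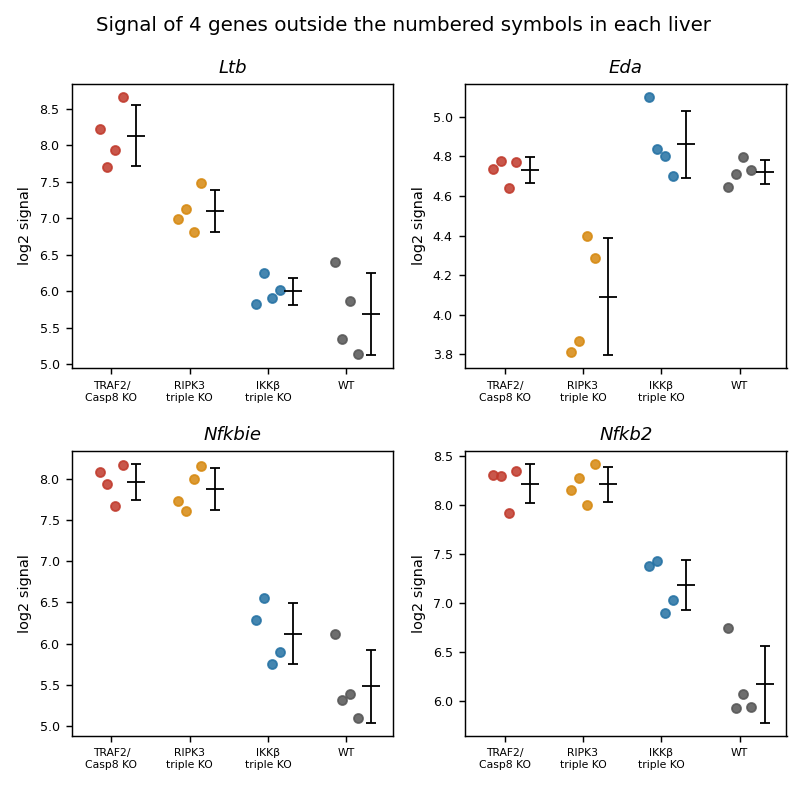
Log2 signal of Ltb, Eda, Nfkbie and Nfkb2 in each liver (points, 4 per genotype), with the mean and SD of the genotype; each panel has its own axis. Ltb separates TRAF2/Casp8 KO (7.70 to 8.67) from IKKβ triple KO (5.82 to 6.25), and Eda is low in RIPK3 triple KO (3.81 to 4.40).

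Inside the cell, some of the genes that act downstream of the receptors passed. Of 18 measured receptor complex and ubiquitin genes, 5 rose in TRAF2/Casp8 KO and 5 in RIPK3 triple KO against WT, where 2.17% and 1.94% of all genes rose, and they were the same 5 genes (Birc2, Birc3, Tnfaip3, Tnip1 and Map3k14). In IKKβ triple KO against WT, where 0.0372% of all genes passed, 0 of the 18 passed by limma. Of the 18, 4 had an unadjusted p under 0.05 there (6.45% of all genes). Of the 5, Tnfaip3 and Map3k14 were above every WT liver in every IKKβ triple KO liver. Tnfaip3, which encodes the inhibitor A20, was at 1.37 ± 0.22 in IKKβ triple KO against WT (2.58-fold, adjusted p = 0.0546). Map3k14, which encodes the kinase NIK of the non-canonical pathway, was at 0.55 ± 0.12 (adjusted p = 0.26), and at 0.54 ± 0.12 in TRAF2/Casp8 KO against WT, where it passed (adjusted p = 0.0306). Between IKKβ triple KO and TRAF2/Casp8 KO, Birc2 and Birc3, which encode cIAP1 and cIAP2, fell by 0.91 ± 0.12 and 1.14 ± 0.21 (adjusted p = 0.00145 and 0.0186). Tnfaip3 rose by 1.76 ± 0.22 in TRAF2/Casp8 KO against WT (limma adjusted p = 0.000365) and by 2.00 ± 0.22 in RIPK3 triple KO against WT (adjusted p = 0.000109).

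Of 7 NF-κB subunit and inhibitor genes, 4 rose in TRAF2/Casp8 KO against WT (2.17% of all genes) and 4 in RIPK3 triple KO against WT (1.94%). By limma 0 passed in IKKβ triple KO against WT (0.0372% of all genes), and 5 had an unadjusted p under 0.05 (6.45%). Nfkbie, which encodes IκBε, had the largest differences of the 7 in the first 2 comparisons, with 2.49 ± 0.22 (adjusted p = 1.8e-05) and 2.40 ± 0.22 (1.86e-05). Nfkb2, whose product p100 is cut to an NF-κB subunit in non-canonical signalling, rose by 2.05 ± 0.18 in TRAF2/Casp8 KO against WT (adjusted p = 1.8e-05) and by 2.04 ± 0.18 in RIPK3 triple KO against WT (1.35e-05). Nfkb2 was at 1.01 ± 0.18 in IKKβ triple KO against WT (2.02-fold, adjusted p = 0.0956), and every IKKβ triple KO liver was above every WT liver. Nfkbia, which encodes IκBα, was at 1.17 ± 0.28 in IKKβ triple KO against WT (adjusted p = 0.354) and at 1.16 ± 0.28 in TRAF2/Casp8 KO against WT, where it passed (adjusted p = 0.0457). The missed threshold in IKKβ triple KO therefore does not show that these genes were at their WT signal. WT replicate 1 read 6.75 for Nfkb2, 6.12 for Nfkbie and 8.82 for Nfkbia. The other WT livers read 5.92 to 6.07, 5.10 to 5.39 and 8.06 to 8.16. The differences of these genes from WT are not given without that liver. In IKKβ triple KO against TRAF2/Casp8 KO, 2 of the 7 fell, where 0.903% of all genes did. They were Nfkbie, by 1.84 ± 0.22 (adjusted p = 0.000841), and Nfkb2, by 1.03 ± 0.18 (adjusted p = 0.0126).

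Death effectors and sheddases held 0 calls by limma in the 6 comparisons, where 1.63% of the differences of all genes passed. Of their differences, 8 of 30 and 0 of 18 had an unadjusted p under 0.05. The share of all genes was 6.45% to 16.7%, depending on the comparison. Among 5 measured death effectors, the smallest adjusted p was that of Cflar, which encodes the caspase-8 inhibitor cFLIP, at −0.40 ± 0.11 in IKKβ triple KO against RIPK3 triple KO (adjusted p = 0.0918). Casp9, an initiator caspase, was at −0.42 ± 0.12 in RIPK3 triple KO against WT (0.0975). Among 3 genes of ligand and receptor shedding, Furin and Adam17 had adjusted p-values of 0.48 and 0.523 in TRAF2/Casp8 KO against WT. The difference between the member counts and these lists' counts was not tested.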

How the data were processed

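Total RNA of whole liver was labelled through whole-transcript cDNA and hybridised to 1-colour arrays. The authors deposited 1 table of log2 values for 35556 probe sets and 16 arrays, made with RMA per the submitters' processing notes; the sources used here give neither its version nor the probe set definitions, and the range of the values set the log base. All per-sample columns were used (0 left out). Symbols came from the platform annotation: 21218 probe sets had 1 symbol, 1881 several and 12457 none, and the 29 member symbols are all current.

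One linear model of the 4 genotypes over the 16 arrays was fitted with limma 3.58.1 (R 4.3.3; lmFit and eBayes), with Benjamini-Hochberg adjustment across all 35556 probe sets and 0.05 as threshold. On simulated data for TRAF2/Casp8 KO against WT with 35556 probe sets, 48.5% of changes of 0.5 (log2), 88.5% of changes of 1 and 96.0% of changes of 2 were recovered, and 7.54% of calls were false. Plots used Python 3.11.15 and matplotlib 3.10.9. The number of arrays limits the precision. P-values set a difference against the spread between mice within genotypes, which limma pooled over the 4 genotypes and moderated. They do not account for plate position, which cannot be told apart from genotype.

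Members past the threshold are named with every array's value, and every other member once with its range. The members and lists were chosen with earlier results of these data known. Tnfrsf12a, Tnfrsf1a, Tnfrsf1b, Tnfsf10 and Tnfrsf18 were singled out for detailed values, and the 3 promoters for printing, after their values were seen. From each other list, up to 4 genes past the threshold per comparison with the smallest adjusted p are named, or up to 2 as values where none passed; Tnf, Fas, Cd40, Ltbr and the values of genes that missed the threshold in 1 comparison were added after they were seen. Promoters were the 250 bases before each start in RefSeq (GRCm38.p6). The promoter sequences used here included none for Tnfrsf10b, and no protein sequences were used. The 10 alternatives were trend and robust eBayes, a fit of only the 2 groups, a filter on the dimmest 33.3% of probe sets, quantile normalization again, centring each array, 1 probe set per gene, the mean of a gene's probe sets, array weights, the replicate number as a block, and plate row as a random block. Each array of the 2 genotypes compared was also left out in turn.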

Additional observations from a re-analysis of the deposited data

Results flagged for a closer look

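In 5 of 116 groups of 4 livers, 1 member's value lay far from the other 3 by Dixon's test at 95%; chance alone gives about 5% of groups. Tnfrsf21 read 7.54 in RIPK3 triple KO replicate 4, against 6.98 to 7.01 in the other livers of that genotype. Tnfrsf25 read 3.65 in IKKβ triple KO replicate 1, against 3.25 to 3.31. Tnfsf11 read 4.30 in TRAF2/Casp8 KO replicate 1, against 4.57 to 4.62. In WT replicate 1, Tnfrsf11b read 7.20 and Tnfrsf13b 5.80, against 6.77 to 6.83 and 5.02 to 5.09 in the other WT livers.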

How the results depend on the processing

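Members past the threshold numbered 0 in RIPK3 triple KO against TRAF2/Casp8 KO, in IKKβ triple KO against TRAF2/Casp8 KO and in IKKβ triple KO against WT under every alternative and without any 1 of the 8 arrays compared; the arrays of the 2 other genotypes were not left out. In TRAF2/Casp8 KO against WT the count of 0 became 1 with only the 2 groups fitted, with 1 probe set per gene, with the mean of a gene's probe sets (Tnfrsf12a in these 3) and with array weights (Tnfrsf1b); leaving out arrays gave 0 to 1. In RIPK3 triple KO against WT leaving out arrays gave 0 to 2, with 2 without WT replicate 1. In IKKβ triple KO against RIPK3 triple KO the count of 1 became 0 with only the 2 groups fitted and without the dimmest 33.3% of probe sets, where Tnfsf18 is not tested; leaving out arrays gave 0 to 1. The cause was not tested.

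Differences near 0 changed sign. Tnfrsf1b in IKKβ triple KO against WT was −0.00217 after quantile normalization and ran from −0.0488 to 0.133 with arrays left out. In IKKβ triple KO against TRAF2/Casp8 KO, leaving out arrays gave −0.0813 to 0.157 for Tnfrsf10b and −0.056 to 0.0928 for Tnfrsf18. Another scaling moved a member's difference by at most 0.064. With the replicate block the counts were unchanged (0 in TRAF2/Casp8 KO against WT, 1 in RIPK3 triple KO against WT, 1 in IKKβ triple KO against RIPK3 triple KO), with adjusted p-values of 0.0365 for Tnfrsf10b, 0.048 for Tnfsf18 and 0.118 for Tnfrsf12a. Same-numbered livers of different genotypes had deviations correlated at −0.10 to 0.16 over 24 pairs (median 0.012), so the numbers were not taken as pairs. Genes near the array's lowest signals, 9 members among them, can change by more than their values show.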
